A study of Mus musculus with 7 samples.

Results

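Meningeal fibroblasts build the collagenous sheath around the spinal cord, and 10 genes that are typical of them were followed here through cervical spinal cord. The list holds Col1a1, Col1a2 and Col3a1 (fibrillar collagens), Dcn, Lum and Ogn (small leucine-rich proteoglycans), and Ptgds, Slc6a13, Aldh1a2 and Slc13a4 (enzymes and transporters). Each was found by its GENCODE M21 symbol among the 55487 genes of the count table, and all 10 passed the filter on low counts that left 18449 genes for testing. Bulk RNA-seq had been made from cervical cords of 8-week-old mice in 2 groups. The labels name them NEAT1-KO; hSOD1G93A (4 mice, replicates 1 to 4) and NEAT1-WT; hSOD1G93A (3 mice, replicates 2 to 4), and they are called Neat1-KO and Neat1-WT below. Every mouse carried the mutant human SOD1 transgene hSOD1G93A, so no library came from a cord without it, and this transgene line was kept on B6/SJLF1. The mice came from Neat1+/-; hSOD1G93A fathers and Neat1+/- mothers, so that the loss of Neat1 was not confined to a cell type. The genes served as a readout of how much of the membranes each dissection had kept, a property that none of the labels records.

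The meninges consist of the outer dura and the inner arachnoid and pia, and fibroblasts of each layer lay down fibrillar collagen, coat it with proteoglycans and pass solutes between blood, cerebrospinal fluid and cord. The cord parenchyma itself holds little fibrillar collagen, which is kept to the pia, the vessel walls and the sheaths of the spinal roots. Membranes, rootlets and vessels cling to a cord when it is lifted out of the vertebral canal, so their RNA enters a bulk library together with that of neurons and glia.

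The libraries held 19661878 to 26031517 counted reads each. Neat1 checked the labels: it stood at 4.04 to 5.52 CPM (the usual depth-scaled read count, with edgeR's TMM factors) in the Neat1-KO libraries and at 80.5 to 118 CPM in the Neat1-WT libraries (log2 fold change −4.25, SE 0.15, edgeR adjusted p = 1.52e-08). Xist did not exceed 0.161 CPM in any library, while Ddx3y, a gene of the Y chromosome, ran from 39.9 CPM in Neat1-KO 4 to 94.4 CPM in Neat1-WT 4. No library was a repeat of another: between libraries of a genotype the chi-square divided by the number of genes was 8.06 to 17.7, where sampling alone gives about 1. Whether the replicates of a group came from separate litters or dissection days is not given in the sources used here, and the p-values below measure the spread between these samples. The Neat1-WT 4 library stood apart in holding skeletal muscle RNA: Myh4, a fast myosin heavy chain, had 91 reads there and at most 3 in any other library, and the muscle list without Pvalb summed to 20.04 CPM against 3.06 to 3.69 CPM elsewhere.

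The promoter windows of 4 of the 10 genes are shown with the letter motifs found in them. RefSeq windows on GRCm38.p6, running from 250 bases before to 50 bases after a start site, were at hand for 7 of the 10 genes (not for Col1a1, Dcn and Lum). The 150 bases before the start are printed 5′ to 3′ on the strand of the gene, in lower case with matches in capitals: chr6:4505468-4505617 on the plus strand for Col1a2, chr1:45311388-45311537 on the plus strand for Col3a1, chr6:35308127-35308276 on the minus strand for Slc13a4 and chr2:25469750-25469899 on the minus strand for Ptgds. Capitals mark CCAAT at −109 in Col1a2, TATAAA at −117 in Col3a1, GGGCGG at −100 in Slc13a4, CCAAT read on the opposite strand as ATTGG at −142 and −70 in Slc13a4, and the TGANTCA match at −35 in Ptgds, where positions count back from −1 at the last base before the start.
Col1a2: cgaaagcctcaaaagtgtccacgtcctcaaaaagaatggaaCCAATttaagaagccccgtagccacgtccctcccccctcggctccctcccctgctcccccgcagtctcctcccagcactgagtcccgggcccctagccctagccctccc
Col3a1: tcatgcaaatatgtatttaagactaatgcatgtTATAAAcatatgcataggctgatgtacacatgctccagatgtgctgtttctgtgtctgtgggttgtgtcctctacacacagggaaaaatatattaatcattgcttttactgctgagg
Slc13a4: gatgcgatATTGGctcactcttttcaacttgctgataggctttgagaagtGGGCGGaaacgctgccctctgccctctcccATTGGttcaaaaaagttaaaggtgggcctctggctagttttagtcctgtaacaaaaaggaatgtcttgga
Ptgds: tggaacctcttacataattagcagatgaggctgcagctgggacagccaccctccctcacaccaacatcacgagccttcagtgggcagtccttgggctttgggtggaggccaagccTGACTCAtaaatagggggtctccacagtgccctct

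The 7 genes had 9 windows, as Slc6a13 has alternative starts. Of the 5 motifs searched on both strands of the 300-base windows, CCAAT, the box bound by NF-Y, was in 5 of the 9 and in 37.4% of all 32851 windows of the table. The 5 belonged to 4 genes (Col1a2, Aldh1a2, Slc13a4 and, at its alternative starts, Slc6a13). GGGCGG, the core of an Sp1 site, was in 3 of the 9 (3 genes) and in 35.7% of all windows. TATAAA was in 2 of the 9 (2 genes) and in 13.6% of all windows. TGANTCA, the AP-1 motif, was in Ptgds alone and in 7.81% of all windows, and GTAAACA, a forkhead motif, was in none of the 7 and in 3.65% of all windows. These are matches of letters in a short window, at RefSeq starts that can differ from the gene ends given below, and were not linked to the values.

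The fibrillar collagens gave the clearest picture of the libraries. Col1a1 (chr11:94936224-94953042), which encodes a chain of type I collagen, the main tensile protein of dura and pia, stood at 10.6, 45.3, 37.2 and 28.8 CPM in Neat1-KO 1 to 4 and at 8.65, 13.5 and 52.3 CPM in Neat1-WT 2 to 4. Neat1-KO 1 and Neat1-WT 2 were both low and Neat1-WT 4 was the highest of all, so each genotype held a low and a high library and the groups overlapped along nearly their whole length. Col1a2 (chr6:4504814-4541544), the partner chain of the type I trimer, stood at 29.9, 80.6, 69.0 and 59.0 CPM in Neat1-KO and at 32.0, 46.9 and 84.8 CPM in Neat1-WT. Col3a1 (chr1:45311538-45349706), whose type III collagen is spun into the same fibrils, stood at 12.9, 38.1, 30.8 and 28.6 CPM in Neat1-KO and at 9.28, 16.3 and 46.7 CPM in Neat1-WT. The 3 genes put the same library on top and the same pair at the bottom.

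The type I chains did not keep one ratio to each other. Divided by the summed exon length of each gene, Col1a1 was 0.511 and 0.546 of Col1a2 in Neat1-WT 2 and 3, 0.673 in Neat1-KO 1, 0.925, 1.02 and 1.07 in Neat1-KO 4, 3 and 2, and 1.17 in Neat1-WT 4. The ratio was low in the libraries with little collagen and high in those with much. Exon length here counts every annotated isoform, so the ratio itself depends on the annotation, and only its course between libraries can be read. Reads from the highest library exceeded those from the lowest by 6.05-fold for Col1a1 (95% interval 5.18 to 7.10 for counting error alone), by 2.84-fold for Col1a2 (2.58 to 3.12) and by 5.03-fold for Col3a1 (4.32 to 5.88).

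**Figure D1:**
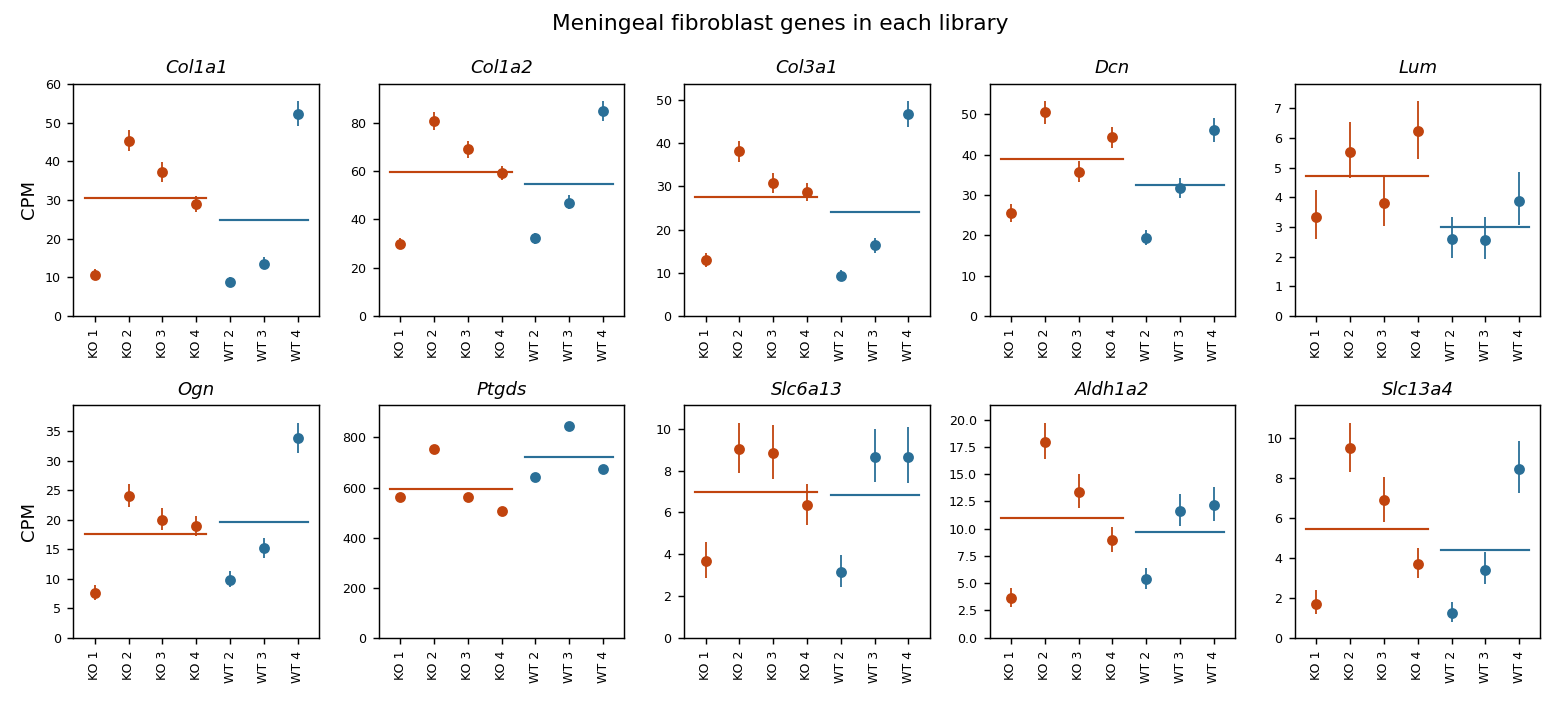
Level of each of the 10 genes in CPM (linear axis from 0) in the 4 Neat1-KO (orange) and 3 Neat1-WT (blue) libraries, with 95% Poisson intervals of the counts as vertical bars and group means as horizontal lines. KO 1 and WT 2 are the lowest pair in every panel but those of Lum and Ptgds. Lum is lowest in WT 3 and WT 2, and Ptgds has KO 4 and WT 3 as its extremes. In no panel do the genotypes separate.

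The proteoglycans followed the collagens less evenly. Dcn (chr10:97479609-97518143) encodes decorin, which binds collagen fibrils and limits their width, and stood at 25.5, 50.4, 35.8 and 44.2 CPM in Neat1-KO and at 19.4, 31.6 and 46.0 CPM in Neat1-WT. Ogn (chr13:49608046-49624501) encodes osteoglycin, another fibril-associated proteoglycan, and stood at 7.60, 24.1, 19.997 and 18.8 CPM in Neat1-KO and at 9.82, 15.2 and 33.8 CPM in Neat1-WT. Both were lowest in Neat1-KO 1 and Neat1-WT 2, as the collagens were. Lum (chr10:97565128-97572703), the gene of lumican, starts 46985 bases beyond the end of Dcn on the same strand and was much scarcer.

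For Lum the values were 3.34, 5.52, 3.80 and 6.22 CPM in Neat1-KO and 2.58, 2.57 and 3.87 CPM in Neat1-WT, from 55 to 163 reads a library. Its order of libraries was its own: Neat1-KO 4 was the highest, and Neat1-WT 4, on top for the 3 collagens, lay below Neat1-KO 2 and close to Neat1-KO 3. As a share of Dcn it was 10.6% to 14.1% in Neat1-KO and 13.3%, 8.12% and 8.42% in Neat1-WT 2, 3 and 4.

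Among the enzymes and transporters, Slc13a4 (chr6:35267957-35308131), a sodium-coupled sulfate transporter, varied more than any other member. It stood at 1.70, 9.47, 6.87 and 3.70 CPM in Neat1-KO and at 1.22, 3.41 and 8.46 CPM in Neat1-WT, a 7.75-fold range (95% interval 5.19 to 12.01 for counting error alone) between 27 reads in Neat1-WT 2 and 235 in Neat1-KO 2. Aldh1a2 (chr9:71215789-71296243), the retinal dehydrogenase with which meninges make retinoic acid, stood at 3.65, 18.0, 13.4 and 8.96 CPM in Neat1-KO and at 5.34, 11.6 and 12.2 CPM in Neat1-WT. Slc6a13 (chr6:121300227-121337733), a GABA and taurine transporter of the meninges, stood at 3.65, 9.03, 8.82 and 6.33 CPM in Neat1-KO and at 3.12, 8.64 and 8.67 CPM in Neat1-WT. In contrast to the collagens, Aldh1a2 and Slc6a13 had overlapping counting intervals in Neat1-WT 3 and Neat1-WT 4, and Slc6a13 split the libraries into a low pair (Neat1-KO 1, Neat1-WT 2) and the rest.

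Ptgds (chr2:25466709-25470046), the lipocalin-type prostaglandin D synthase that is secreted into cerebrospinal fluid, departed from the list. It stood at 561, 753, 562 and 507 CPM in Neat1-KO and at 642, 847 and 675 CPM in Neat1-WT, a range of 1.67-fold. Neat1-WT 3 was the highest library and Neat1-KO 4 the lowest, and of the pair at the bottom for the collagens, Neat1-KO 1 was again the second lowest while Neat1-WT 2 lay in the middle. Relative to the summed CPM of the other 9 genes, Ptgds was 5.67, 2.68, 2.49 and 2.48 times as high in Neat1-KO 1 to 4 and 7.01, 5.65 and 2.27 times as high in Neat1-WT 2 to 4. Oligodendrocytes are known to transcribe Ptgds besides the leptomeninges. The sum of 12 oligodendrocyte genes, among them Mbp and Mobp, varied by 1.26-fold. It ran from 37761 to 40395 CPM in Neat1-KO and from 39028 to 47548 CPM in Neat1-WT. The sum was lowest in Neat1-KO 4, the lowest library for Ptgds too, and stood at 42818 CPM in Neat1-WT 3, the highest library for Ptgds. It was highest in Neat1-WT 4, where Ptgds was lower than in Neat1-WT 3 and Neat1-KO 2. Which cells the Ptgds reads came from was not tested.

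Per exon length, as the mean CPM per kilobase of exon over the 7 libraries (RPKM), Ptgds was the highest member at 394 RPKM (308 to 514 RPKM between libraries). There followed Ogn at 7.20, Dcn at 6.19, Col1a2 at 4.63, Aldh1a2 at 4.61, Col1a1 at 4.28, Col3a1 at 2.66, Slc6a13 at 2.37, Lum at 1.63 and Slc13a4 at 1.10 RPKM. Below Ptgds every neighbouring pair in this order overlapped between libraries, for example Ogn at 2.96 to 13.2 RPKM and Dcn at 3.33 to 8.64 RPKM.

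The same libraries lay at the ends for most members, while the order between them differed from gene to gene. The 9 genes other than Ptgds summed to 98.8, 281, 226 and 205 CPM in Neat1-KO 1 to 4 and to 91.5, 150 and 297 CPM in Neat1-WT 2 to 4. Neat1-KO 1 and Neat1-WT 2 were each among the 2 lowest libraries for 9 of the 10 genes, Neat1-KO 2 was among the 2 highest for all 10, and Neat1-WT 4 for 6. The median member was at 0.507 and 0.522 of its 7-library mean in Neat1-KO 1 and Neat1-WT 2 and at 1.40 and 1.37 of it in Neat1-KO 2 and Neat1-WT 4. In bulk libraries such as these, fewer fibroblasts and less RNA per fibroblast cannot be told apart.

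This spread was wide for the data set. The highest library exceeded the lowest by a median of 3.67-fold over the members and by 1.39-fold over the 18449 genes tested, and the range of 5 members (Col1a1, Col3a1, Ogn, Aldh1a2 and Slc13a4) was above the 95th percentile of all genes tested. The 3.67-fold is from CPM. The 1.39-fold and the percentiles are from log2 CPM with a prior count of 2, so the folds are not the same measure. The SD of log2 CPM within genotypes had a median of 0.75 over the members and of 0.17 over all genes. On edgeR's scale the biological coefficient of variation ran from 0.125 for Ptgds, close to the 0.121 of the median gene, through 0.22 for Lum and 0.234 for Dcn to 0.471 for Col1a1 and 0.506 for Slc13a4.

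As a description of how far the genes moved together, the log2 CPM of each gene was correlated over the 7 libraries with the mean of the other 9; these points share libraries and depth, and no p is given. Pearson's r was 0.99 for Col1a2, 0.98 for Slc13a4, 0.96 for Col3a1, 0.96 for Col1a1, 0.95 for Ogn, 0.94 for Dcn, 0.89 for Slc6a13 and 0.88 for Aldh1a2 (Spearman's rho 0.82 to 1), 0.59 for Lum (rho 0.68) and 0.15 for Ptgds (rho 0.29). Ptgds reached 0.45 (rho 0.50) with the mean of the oligodendrocyte genes. Without the 2 libraries farthest from the median, Neat1-KO 1 and Neat1-WT 2, r over the 5 left was 0.98 for Col1a2, 0.93 for Slc13a4, 0.92 for Col1a1 and for Col3a1, 0.85 for Ogn and 0.79 for Dcn. It was 0.55 for Aldh1a2 (rho 0.60), 0.36 for Lum (rho 0.40), 0.31 for Slc6a13 (rho 0.80) and −0.14 for Ptgds (rho 0). By r, the relation of Slc6a13, Aldh1a2 and Lum thus rested largely on those 2 libraries, though by rank that of Slc6a13 largely stayed. The first principal component of all genes tested, with 26.9% of the variance, had an r of 0.94 (rho 0.86) with the mean of the 9 members other than Ptgds.

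The study's comparison asked what loss of Neat1 changed in cords that carried hSOD1G93A. Calls needed an edgeR p, adjusted by Benjamini-Hochberg over all genes tested, under 0.1 and a log2 fold change beyond 0.58 in either direction. None of the 10 genes was called by edgeR, where 0.0325% of the genes tested were (6 of 18449, with 0.0108% higher and 0.0217% lower in Neat1-KO), and none was called by DESeq2 or limma-voom. At an unadjusted p under 0.05 stood 2 members, Lum and Ptgds, beside 4.64% of all genes, and DESeq2 and limma-voom also put 2 members there. The genotypes overlapped for all 10 genes, whereas for 5.47% of all genes they did not.

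Lum had the largest fitted difference of the 10. It averaged 4.72 ± 1.37 CPM over the Neat1-KO libraries (SD, n = 4) against 3.01 ± 0.751 CPM over the Neat1-WT libraries (SD, n = 3), a log2 fold change of 0.66 (SE 0.25, 95% interval 0.12 to 1.21, edgeR unadjusted p = 0.0214, adjusted p = 0.992). The exact two-sided permutation test over the 35 ways of splitting the libraries gave p = 0.143, where the smallest p it allows is 0.0286. Ptgds lay on the other side, at 596 ± 108 CPM over the Neat1-KO libraries (SD, n = 4) against 721 ± 110 CPM over the Neat1-WT libraries (SD, n = 3), a log2 fold change of −0.28 (SE 0.13, 95% interval −0.55 to −0.000064, edgeR unadjusted p = 0.05, adjusted p = 0.992). Its exact permutation p was 0.171. Neither difference held against the number of genes tested.

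For the collagens the intervals were wide on both sides of 0. Col1a1 averaged 30.5 ± 14.9 CPM over the Neat1-KO libraries (SD, n = 4) against 24.8 ± 23.9 CPM over the Neat1-WT libraries (SD, n = 3), a log2 fold change of 0.31 (SE 0.52, 95% interval −0.83 to 1.44, edgeR adjusted p = 0.992). Col1a2 differed by 0.13 (SE 0.32, −0.55 to 0.82) and Col3a1 by 0.21 (SE 0.44, −0.74 to 1.15) on the log2 scale. Expressed as a fold, the interval of Col1a1 reached from 0.564 to 2.72, so changes of 0.58 on the log2 scale in either direction lay inside it.

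The remaining members gave a like result. Dcn differed by 0.27 (SE 0.25, 95% interval −0.28 to 0.83), Ogn by −0.14 (SE 0.38, −0.96 to 0.68), Slc6a13 by 0.04 (SE 0.34, −0.70 to 0.78), Aldh1a2 by 0.19 (SE 0.40, −0.68 to 1.06) and Slc13a4 by 0.34 (SE 0.56, −0.88 to 1.55) on the log2 scale, with edgeR adjusted p-values of 0.992 to 0.997. Over the 8 genes other than Lum and Ptgds the exact permutation p ran from 0.457 to 0.914. The intervals of 9 genes held a log2 change of 0.58 and those of 6 held −0.58, and that of Ptgds alone lay wholly between the limits.

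The direction of the list turned with single libraries. The fitted value was higher in Neat1-KO for 8 of the 10 genes (51.8% of all genes tested), and the median over the list was 0.20 on the log2 scale against 0.0062 over all genes. Without Neat1-WT 2 only 2 genes, Dcn and Lum, were higher and the median was −0.13. Without Neat1-KO 2 it was 4 genes with a median of −0.06, and without Neat1-WT 4 it was 9 genes with a median of 0.60, 5 of them (and Ptgds, which was lower) at an unadjusted edgeR p under 0.05. Without both Neat1-KO 1 and Neat1-WT 2 it was 7 genes with a median of 0.12. Col1a1 alone went from −0.10 without Neat1-WT 2 to 1.46 without Neat1-WT 4.

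**Figure D2:**
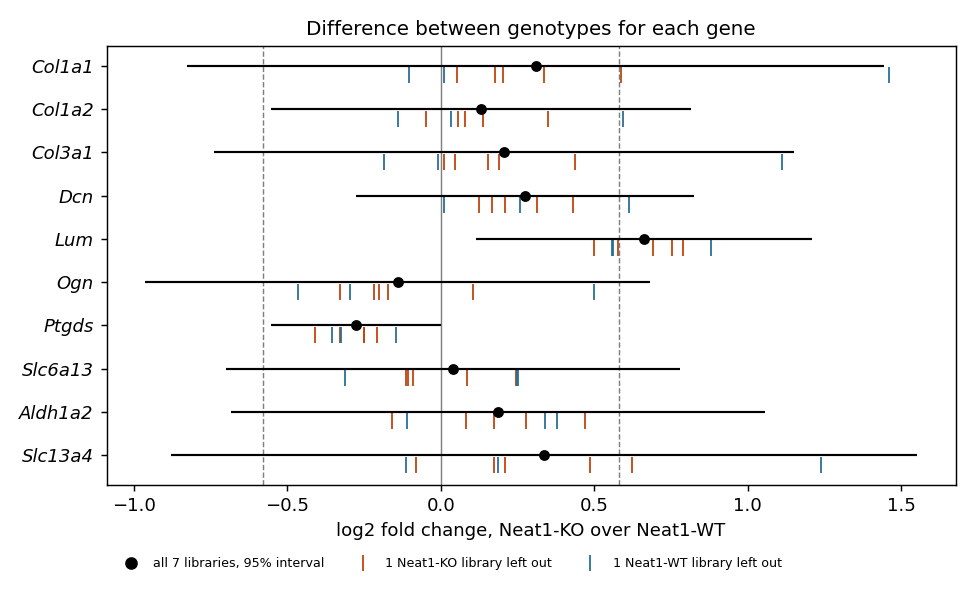
Log2 fold change of Neat1-KO over Neat1-WT for each gene with all 7 libraries (black points, 95% interval) and with 1 library left out (ticks, orange for Neat1-KO and blue for Neat1-WT). Among the orange ticks of each gene, 1 is the fit without both Neat1-KO 1 and Neat1-WT 2, chosen after the data were seen. Dashed lines mark the minimum of 0.58 used for calls, and the intervals of all genes but Lum and Ptgds hold 0, the tick farthest to the right for Col1a1 (1.46) being the fit without Neat1-WT 4.

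Other collagens moved between libraries with the members. The 25 genes of that list, led by Col11a2 and the basement membrane chains Col4a2 and Col4a1, summed to 328 to 525 CPM in Neat1-KO and to 292 to 484 CPM in Neat1-WT, with 1.80-fold between Neat1-WT 2 and Neat1-KO 2. Against the mean log2 CPM of the 10 members, 9 of the 25 had an r of at least 0.9 (2.13% of all genes tested outside the list did). Col6a2, of the microfibrillar type VI collagen of fibroblasts, ran from 6.47 to 18.1 CPM (r 0.98, rho 0.96), whereas Col25a1, a membrane collagen of neurons chosen after its values were seen, ran from 23.6 to 30.02 CPM (r 0.23). No other collagen was called (2 at an unadjusted edgeR p under 0.05, Col16a1 and Col13a1, both higher in Neat1-KO, and 12 without Neat1-WT 4 or 10 without Neat1-KO 1, all higher), 21 were higher and 4 lower in Neat1-KO, and their median log2 fold change was 0.26 with 7 libraries, 0.05 without Neat1-WT 2 and 0.51 without Neat1-WT 4.

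The machinery that folds and processes collagen varied less in sum. Its 28 genes, led by Sparc, P4hb (the shared subunit of prolyl hydroxylase) and Mia3 (a receptor for collagen export), summed to 1905 to 2158 CPM in Neat1-KO and to 1877 to 2030 CPM in Neat1-WT, a 1.15-fold range, with Sparc alone at a mean of 1220 CPM. The median gene of the list ranged over 1.38-fold, but Loxl4 ranged over 9.47-fold, Lox over 6.51-fold and Loxl2 over 4.08-fold. The list's mean log2 CPM did follow the members other than Ptgds (r 0.93, rho 0.93), whereas Loxl4 did not follow the members (r −0.015, rho −0.43). Only Pcolce, an enhancer of procollagen cleavage (3.21 to 11.8 CPM, r 0.98), Adamts2, a procollagen peptidase (25.03 to 31.3 CPM, r 0.96), and Loxl2, a crosslinking oxidase (1.75 to 7.13 CPM, r 0.93), of the 27 tested had an r of at least 0.9 with the members; these genes and the Lox family were named after their values were seen. None of the 27 was called (2 at an unadjusted edgeR p under 0.05, P4ha1 and Loxl4, both lower in Neat1-KO), 18 were higher and 9 lower in Neat1-KO, and the median log2 fold change was 0.04.

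The 3 most abundant of the other small leucine-rich proteoglycans varied with the list again. Bgn stood at 14.7 to 37.1 CPM, Prelp at 14.3 to 33.1 CPM and Fmod at 8.01 to 32.9 CPM, each lowest in Neat1-KO 1 and Neat1-WT 2 and each with an r of 0.96 to 0.98 with the members. The 12 genes summed to 51.7 to 118 CPM in Neat1-KO and to 50.02 to 123 CPM in Neat1-WT. The other 6 tested had an r below 0.9, from 0.86 for Ecm2 down to −0.20 for Aspn and −0.45 for Optc, named after their values were seen. Of the 9 tested none was called or had an unadjusted edgeR p under 0.05, 5 were higher and 4 lower, and the median log2 fold change of 0.04 became −0.25 without Neat1-WT 2 and 0.41 without Neat1-WT 4. Kera and Podnl1 did not exceed 3 reads in any library.

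A further 50 genes known from meningeal fibroblasts and arachnoid barrier cells summed to 501 to 732 CPM in Neat1-KO and to 491 to 748 CPM in Neat1-WT. The 3 most abundant of them did not follow the members: Gjb6 (70.4 to 98.3 CPM, r −0.24), Slc4a10 (73.4 to 84.2 CPM, r 0.22) and Igfbp2 (43.7 to 71.4 CPM, r 0.56) are also made by neurons or astrocytes. Among those that did, Fn1, the fibronectin gene, stood at 27.6 to 87.0 CPM (r 0.97, rho 0.96, named after its values were seen) and Gjb2, a connexin of the leptomeninges, at 7.19 to 14.6 CPM (r 0.995, rho 0.93). In all 11 of the 45 tested had an r of at least 0.9. None was called or had an unadjusted edgeR p under 0.05, 29 were higher and 16 lower in Neat1-KO, and the median log2 fold change of 0.09 became −0.09 without Neat1-WT 2 and 0.38 without Neat1-WT 4, where 36 were higher and 8 had an unadjusted edgeR p under 0.05.

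The pathways around the enzymes varied little in sum. Of 18 retinoic acid genes, led by Aldh1a1, Rxra and Rxrb, the sum stood at 500 to 544 CPM in Neat1-KO and 516 to 539 CPM in Neat1-WT, and none of the 17 tested reached an r of 0.9 with the members or was called (1 at an unadjusted edgeR p under 0.05, Dhrs3, lower in Neat1-KO). There 10 were higher and 7 lower with a median log2 fold change of 0.02, and the mean log2 CPM of the 17 did follow the members other than Ptgds (r 0.96). Aldh1a1, a related retinal dehydrogenase, stood at 249.1 to 293 CPM where Aldh1a2 ran from 3.65 to 18.0 CPM. Of 18 prostaglandin genes other than Ptgds, led by Ptges3, Cbr1 and Akr1b3, the sum stood at 298 to 333 CPM in Neat1-KO and 320 to 330 CPM in Neat1-WT, and again none of the 17 tested reached an r of 0.9 or was called (0 at an unadjusted edgeR p under 0.05, 10 higher, 7 lower, median log2 fold change 0.07). Ptgdr and Ptgdr2, the receptors of the product of Ptgds, stood at or below 0.867 CPM and 0.534 CPM.

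**Figure D3:**
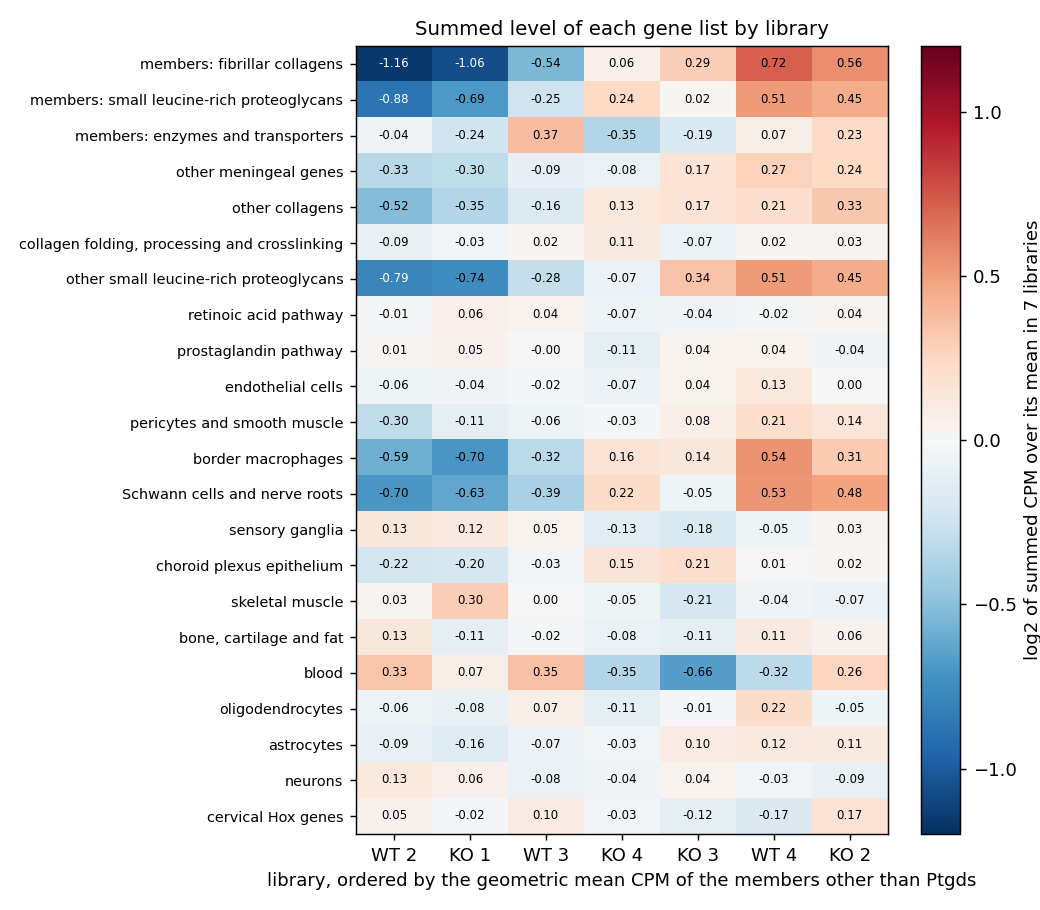
Log2 of the summed CPM of each gene list in a library over its mean in 7 libraries, with libraries ordered from the lowest to the highest geometric mean of the members other than Ptgds (colours and printed values on the same scale). Fibrillar collagens go from a sum of 49.97 CPM in WT 2 to 184 CPM in WT 4, other proteoglycans, border macrophages and Schwann cells change colour along the same order, and the enzymes and transporters, dominated by Ptgds, do not.

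Markers of Schwann cells moved in step with the members. For other lists the mean log2 CPM had an r with the members other than Ptgds of −0.14 (sensory ganglia), −0.16 (blood) and 0.21 (skeletal muscle). Of the sensory ganglion list 7 of 11 genes were tested, and of the muscle list 4 of 10. Nefh led the sensory ganglion list at a mean of 1783 CPM, and Mrgprd had at most 3 reads in any library. Whether ganglion tissue varied with the members was not tested. All 10 tested genes of the Schwann cell and nerve root list had a positive r with the members and 6 had one of at least 0.9. The list summed to 326, 704, 486 and 586 CPM in Neat1-KO 1 to 4 and to 310, 384 and 729 CPM in Neat1-WT 2 to 4. Among its abundant genes were Pmp22 and Sox10. Prx, which encodes periaxin of myelinating Schwann cells and was chosen after its values were seen, stood at 3.03, 47.1, 23.8 and 36.8 CPM in Neat1-KO and at 3.80, 8.54 and 40.9 CPM in Neat1-WT, a 15.5-fold range (r 0.96, rho 0.93, and 0.85 over 5 libraries). The defining Pmp2 had at most 1 read in a library. Sox10 and Pmp22, which oligodendrocytes transcribe too, varied by 1.41-fold and 1.87-fold. No gene of the list was called or had an unadjusted edgeR p under 0.05, all 10 were higher in Neat1-KO with a median log2 fold change of 0.26, and this became −0.04 without Neat1-WT 2, with 5 of 10 higher, and 1.26 without Neat1-WT 4, where 8 of the 10 had an unadjusted edgeR p under 0.05.

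Border macrophages, which live in the same membranes and around vessels, stood at low levels. Their 9 markers summed to 7.71 to 15.5 CPM in Neat1-KO and to 8.33 to 18.2 CPM in Neat1-WT, led by Mrc1 (1.80 to 6.47 CPM, r 0.95), F13a1 (1.75 to 4.35 CPM, r 0.89) and Cd163 (1.40 to 3.11 CPM, r 0.74), and Cd209f had at most 2 reads. Pericyte and smooth muscle markers summed to 234 to 279 CPM and 205 to 293 CPM, with Vtn and Pdgfrb in step with the members (r 0.94 and 0.97) and Rgs5 not (r 0.05). Endothelial markers, led by Slc2a1, Flt1 and Mfsd2a, varied by 1.15-fold. Choroid plexus markers summed to 16.6 to 22.2 CPM and 16.4 to 19.2 CPM, led by Prlr, Kl and Clic6, and its defining genes were at or near 0, with at most 3 reads for Ttr and none for Otx2. No gene of these 4 lists was called, and 2, both endothelial, had an unadjusted edgeR p under 0.05. Over all 19 lists beside the members 0 of 242 genes tested were called by edgeR, DESeq2 or limma-voom, with 16, 19 and 19 at an unadjusted p under 0.05. The part of Schwann cells, macrophages, vessels or muscle in the members' values was not tested.

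**Figure D4:**
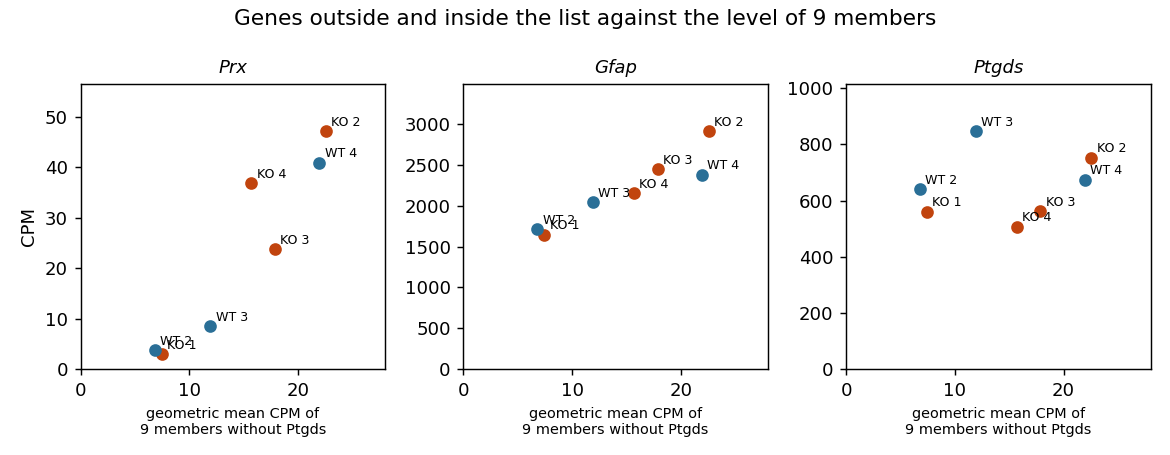
CPM of Prx, Gfap and Ptgds (linear axes from 0) against the geometric mean CPM of the 9 members other than Ptgds, 1 point per library (orange Neat1-KO, blue Neat1-WT). Prx runs from 3.03 to 47.1 CPM along the members, Gfap rises over a narrower range, and Ptgds shows no course.

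The genes most like the list were searched among the 3357 genes outside it with at least a 2-fold range between libraries, by Pearson's r of log2 CPM with the mean of the 10 members over 7 libraries. The 10 at the top were C1ra, Gjb2, Fgl2, Uaca, Vim, Aox3, Apbb1ip, Col15a1, Col6a2 and Islr, with r from 0.983 to 0.998 (rho 0.93 to 1) and from 0.917 to 0.995 over the 5 libraries. C1ra, a protease of the complement cascade, ran from 0.453 to 1.69 CPM, and Vim, the intermediate filament of mesenchymal cells and glia, from 44.2 to 91.6 CPM. Gjb2 and Islr were already on the list of further meningeal genes, and Col15a1 and Col6a2 on that of other collagens. Of the 3357 genes 116 had an r of at least 0.9 and 4 an r of −0.9 or less.

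Since the members differed so much between libraries, the comparison of genotypes was also fitted with their mean log2 CPM as a covariate. It again called 6 genes, and all 6 were those called without it: Neat1, AC117239.2, Hspa1b and Hspb1 were lower in Neat1-KO and Hjurp and Frmd8os were higher. The inducible chaperone gene Hspa1b differed by −1.25 on the log2 scale (SE 0.20, edgeR adjusted p = 0.0888) without the covariate and −1.34 (SE 0.19, adjusted p = 0.0226) with it. Hspb1, a small heat shock protein, had −0.63 (SE 0.10, edgeR adjusted p = 0.075) and −0.63 (SE 0.10, adjusted p = 0.0487). With the mean of the 3 collagens and 3 proteoglycans as the covariate the same 6 genes were called. Leaving out the 2 libraries lowest in the members, a choice made after seeing the data, gave 19 calls, of which 5 were among the 6, and Hspb1 was then at −0.63 with an SE of 0.12 and an edgeR adjusted p of 0.167.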

How the data were processed

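Poly(A) RNA of 7 cervical cords was sequenced from directional libraries. Per the labels and the study's methods, the authors trimmed the reads (Trimmomatic 0.38) and aligned them to mm10 (HISAT2 2.1.0). They converted the alignments to BAM format (SAMtools 1.9) and counted uniquely mapped reads per gene (featureCounts 1.6.3). The deposited values are raw counts per Ensembl gene, used as they stand. The strand setting and annotation release of the counting are not given in the sources used here, so overlapping and antisense genes may share reads. Symbols came from GENCODE M21 (55227 of 55487 IDs named).

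Low counts were removed with filterByExpr, libraries were scaled by TMM, and genotypes were compared with edgeR's quasi-likelihood test (edgeR 4.0.16, R 4.3.3), with Benjamini-Hochberg adjustment over 18449 genes and no covariate. Exact permutation tests used the difference of mean log2 CPM of single genes (Python 3.11.15, numpy 2.4.6). Counting intervals and correlations used scipy 1.17.1. RPKM divides CPM by the merged exon length. DESeq2 1.42.0, limma-voom (limma 3.58.1), other scalings and filters, a replicate block, covariates and leaving out each library were alternatives, and the scripts were tested on simulated data. Intervals on counts cover counting error only, since PCR copies are not independent molecules. Named were all members, the 3 most abundant genes of each other list, called genes and the 10 genes most like the members, and others are said to be chosen after their values were seen. The members and all lists were chosen with earlier results of these data known. Promoters came from RefSeq (GRCm38.p6). Some items are not reported here.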

Additional observations from a re-analysis of the deposited data

How the results depend on the processing

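None of the 10 genes was called under any of 19 alternatives, which included DESeq2, limma-voom, other scalings and filters, both thresholds and each library left out. Of 170 values of single genes, 151 kept their direction and 19 turned, none past the threshold. Xist stood at 0.161 CPM or less in every library, so as a covariate it carries counting noise and cannot stand for sex. With it the log2 fold change was −0.045 for Aldh1a2, 0.049 for Ogn and −0.090 for Slc6a13, which was at −0.11 without both Neat1-KO 1 and Neat1-WT 2 (chosen after seeing the data). With a library left out it ran from −0.16 to 0.47 for Aldh1a2, −0.10 to 1.46 for Col1a1, −0.14 to 0.60 for Col1a2, −0.18 to 1.11 for Col3a1, −0.46 to 0.50 for Ogn, −0.11 to 1.24 for Slc13a4 and −0.31 to 0.25 for Slc6a13. Dcn, Lum and Ptgds kept their direction throughout, and Ptgds reached an adjusted p of 0.0837 at −0.28 with no filter. The number of members higher in Neat1-KO, 8 with all libraries, ran from 2 (without Neat1-WT 2) to 9 with a library left out (4 without Neat1-KO 2). Over all genes, the 6 calls became 27 with DESeq2, 124 with no filter, 19 without Neat1-KO 1 and Neat1-WT 2, and 3 to 31 with a library left out (31 without Neat1-KO 1, 3 without Neat1-WT 3, 11 without Neat1-WT 4). The cause was not tested. Samples with the same replicate number did not deviate together (r −0.20, −0.12 and −0.01 over the 18449 genes for numbers 2, 3 and 4, and none was most alike with its own number), so the replicate block pairs samples by number only. It gave 39 calls, none of them a member, 0.26 for Ogn and a median of 0.48 over the members. With 3 and 4 mice and a 1.67-fold to 7.75-fold spread between libraries, a log2 change of 0.58 lay inside the interval of 9 of the 10 genes.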

Other observations

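Some genes of the cord itself also followed or opposed the 10 genes over the 7 libraries. Gfap, the intermediate filament of astrocytes, stood at 1644, 2908, 2448 and 2154 CPM in Neat1-KO 1 to 4 and at 1712, 2045 and 2376 CPM in Neat1-WT 2 to 4 (r 0.95, rho 0.93 with the members, and 0.86 over the 5 libraries without Neat1-KO 1 and Neat1-WT 2). Slc1a3, a glutamate transporter named after its values were seen, followed too (r 0.94, rho 0.89, and 0.90 over 5 libraries), whereas the abundant Slc1a2 and Aldoc had an r of 0.51 and −0.67. The mean log2 CPM of the list had an r of 0.89 with the members other than Ptgds, and the 8 astrocyte markers summed to 6731 to 8097 CPM in Neat1-KO and 7049 to 8143 CPM in Neat1-WT. Stmn2, a growth-associated gene of neurons, ran the opposite way, from 492 CPM in Neat1-WT 2 and 459 CPM in Neat1-KO 1 down to 384 CPM in Neat1-KO 2 (r −0.94, rho −0.89, and −0.76 over 5 libraries). Of the 8 neuron markers tested, Stmn2 alone had an r of −0.9 or less, as did 1.025% of all tested genes outside the members. Of the same 8 markers 3 had a positive r. The mean log2 CPM of the neuron list had an r of −0.72 with the members other than Ptgds. Neuron markers, led by Snap25, Stmn2 and Slc32a1, varied by 1.16-fold in sum.

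The mean log2 CPM of a list had an r with the members other than Ptgds of −0.17 for the cervical Hox genes. It was 0.16 for oligodendrocytes and 0.70 for bone, cartilage and fat. The r was 0.98 for the other meningeal genes and for the other collagens, 0.96 for Schwann cells and 0.95 for border macrophages. For the other proteoglycans it was 0.94, for pericytes and smooth muscle 0.90 and for choroid plexus 0.88. Endothelial cells had 0.64 and the prostaglandin genes 0.52. Blood markers, led by Hbb-bs, Hba-a1 and S100a9, summed to 8.26 to 15.6 CPM in Neat1-KO and 10.5 to 16.6 CPM in Neat1-WT and were lowest in Neat1-KO 3. The cervical Hox genes, led by Hoxb6, Hoxb5 and Hoxa5, varied by 1.27-fold, and the sensory ganglion list, led by Nefh, Prph and Calca, by 1.24-fold. The bone, cartilage and fat list, led by Acan, Alpl and Sp7, varied by 1.19-fold with Cfd at 0, and the skeletal muscle list, led by Pvalb, Mylpf and Acta1, by 1.43-fold, set mainly by Pvalb, a calcium buffer of interneurons too. No gene of the blood, Hox, sensory ganglion, bone, cartilage and fat, or skeletal muscle lists was called. The same held for the oligodendrocyte, astrocyte and neuron lists. Of the genes in these lists, 4 oligodendrocyte genes (lower in Neat1-KO) and 2 sensory ganglion genes (lower) had an unadjusted edgeR p under 0.05. So did Acta1 and Acan (lower) and Gad1 (higher), but none of the blood, astrocyte or Hox genes.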
